A study of Mus musculus with 2 samples.

Results

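The genes of antigen presentation were taken from the table of uterine genes by their symbols: every symbol that begins with H2-, the mouse name of the major histocompatibility complex (MHC), and 11 further names, B2m, Tap1, Tap2, Tapbp, Cd74, Ciita, Nlrc5, Cd1d1, Fcgrt, Mr1 and Erap1. Of the 14678 genes of the table, 34 were found, 24 of them by the H2- symbol and 10 of the 11 names. Cd1d1 was not analysed here. The 34 genes comprised 2 classical class I heavy chain genes, 11 non-classical class I genes, 5 genes of the class I light chain and of class I peptide loading, 2 class I-like genes, 4 class II chain genes, 4 class II peptide editor genes, the invariant chain, 2 transactivators and 3 other genes with an H2- name. Of the 3, H2-Ke2 and H2-Ke6 encode a prefoldin subunit and a hydroxysteroid dehydrogenase and lie in the MHC without presenting antigen.

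Uteri were taken on gestation day 2.5, before implantation, from double transgenic females (VEGFtetO/tetO/beta-AKtg/wt) aged 9 to 10 weeks, mated with VEGFtetO/tetO males. All females carried 4 tet operators in the VEGF promoter and a tetR-Krab repressor driven by the beta-actin promoter in all tissues. Dox+ mice (VEGF-normal) stayed on doxycycline chow, which keeps the repressor off VEGF, and Dox- mice (VEGF-repression) were littermates changed to regular chow when 3 to 4 weeks old, so that doxycycline itself and VEGF repression cannot be told apart. RNA of 3 uteri per condition was pooled into 1 library, and digital gene expression (DGE) profiling counted sequence tags per gene, called copies. Levels are given as TPM, which here are copies scaled to an equal number of clean tags per library, with no correction for length. The H2 haplotype of the mice is not given in the sources used here.

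The Dox+ library had 5985925 clean tags and the Dox- library 5844314, of which 74.1% and 72.2% were counted for genes of the table. Vegfa, the repressed gene, had 247 copies in Dox+ and 125 in Dox-, 1.93-fold lower in Dox- (95% interval 1.55 to 2.41). Uterine stroma and smooth muscle genes were abundant in both, with 3120 and 1060 copies of Hoxa10 and 11417 and 8854 of Tagln. With 1 library per condition no difference has a replicate check. Every interval given is an exact 95% interval that covers counting error only, and the spread between uteri was not measured.

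MHC class I molecules present peptides made in the cytosol. A heavy chain pairs with beta-2 microglobulin, the product of B2m, and receives peptides that the TAP transporter carries into the endoplasmic reticulum. Class II molecules present peptides from endosomes, and the invariant chain, the product of Cd74, fills their groove until the DM molecule exchanges its remnant for a peptide. Class I is found on nearly all nucleated cells, and class II mainly on macrophages, dendritic cells and B cells, which are present in the uterus before implantation.

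Since tags that matched more than 1 gene were not counted, the sequences of the class I genes bear on their copies. In the reference transcripts of GENCODE (build NCBIM37, the UCSC mm9), 29 of the 34 genes had a protein-coding transcript. Of all windows of 21 bases in the longest transcript, 40.3% in H2-K1 and 40.0% in H2-D1 also occurred in another gene, and for both the gene that shared most was the other of the pair. The share was 73.4% for H2-T22, 70.9% for H2-T10, 48.0% for H2-Q6, 45.4% for H2-DMb1 and 40.8% for H2-T23, but 0.238% for B2m, 0.809% for H2-Aa and 0 for H2-DMa. It was under 10% for 21 of the 29 genes.

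DGE tags usually start at the last site of an enzyme that cuts at CATG or at GATC, and the enzyme used is not given in the sources used here. The last tags of the classical class I genes and of B2m and H2-DMa are shown because they tell which copies a tag can assign, with the enzyme site in capitals.
H2-K1, CATG: CATGgattgagaatgcttaga
H2-D1, CATG: CATGgattgagaatgcttaga
H2-K1, GATC: GATCtgtctctcccagattgt
H2-D1, GATC: GATCtagggctgatttcttgt
B2m, CATG: CATGttttcaaaaaattggaa
H2-DMa, CATG: CATGggcattgtcttcttcct

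The CATG tags of H2-K1 (chr17:34133039-34133059, minus strand, 3' UTR in exon 8 of 8) and H2-D1 (chr17:35404359-35404379, plus strand, 3' UTR in exon 8 of 8) were identical over all 21 bases. Their GATC tags differed, and the one of H2-K1 lay in the coding sequence (chr17:34133565-34133585, minus strand, exon 7 of 8), while that of H2-D1 lay in the 3' UTR (chr17:35404332-35404352, plus strand, exon 8 of 8). The tags of B2m (chr2:121978515-121978535, plus strand, 3' UTR in exon 4 of 4) and H2-DMa (chr17:34275434-34275454, plus strand, coding sequence in exon 4 of 5) occurred in no other gene. Over the 29 genes, the last CATG tag was shared with another gene for 6 and the last GATC tag for 5. The last tag of H2-T23, H2-T22 and H2-T10 was shared at either site, for H2-T23 with 44 other genes at CATG and 21 at GATC. The copies of H2-K1, H2-D1, H2-T23, H2-T22 and H2-T10 are therefore uncertain, since shared tags would not be counted. The same holds for H2-DMb1 if the site is CATG, and for H2-Q6 and H2-T24 if it is GATC.

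Among the genes of antigen presentation with at least 200 combined copies, B2m, Cd74 and H2-D1 were at least 1.5-fold higher in the Dox- library. H2-DMa was at least 1.5-fold lower. By less than 1.5-fold but beyond counting error, Tap1 and H2-Ke6 were higher and H2-K1 and H2-Aa lower. H2-Ke6 and H2-Ke2 do not present antigen and are counted here by their H2- names. The class II chains H2-Ab1 and H2-Eb1 differed by less than counting error. The copies of H2-K1 and H2-D1 are uncertain because of their shared CATG tag. The 34 genes together had 22887 copies in Dox+ and 26796 in Dox-, or 3823 and 4585 TPM. In whole uteri, fewer cells of a type and less RNA per cell cannot be told apart. With at least 200 combined copies, as the study's methods ask, 14 of them could be compared, and 20 had fewer. Of the 14, 3 were at least 1.5-fold higher in Dox- and 1 at least 1.5-fold lower, 21.4% and 7.14%, where 15.2% and 14.7% of all 6547 genes with that many copies were, or 29.9% in either direction. Their median log2 ratio, Dox- over Dox+, was 0.09, beside 0.03 for all 6547 genes. With 4 of 14 genes past the threshold, the share in either direction was near that of the whole table.

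By the interval of the ratio, 5 of the 14 genes lay above a ratio of 1 and 3 below it, while 6 intervals held 1. Over all 6547 genes, 34.8% lay above and 31.5% below.

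**Figure D1:**
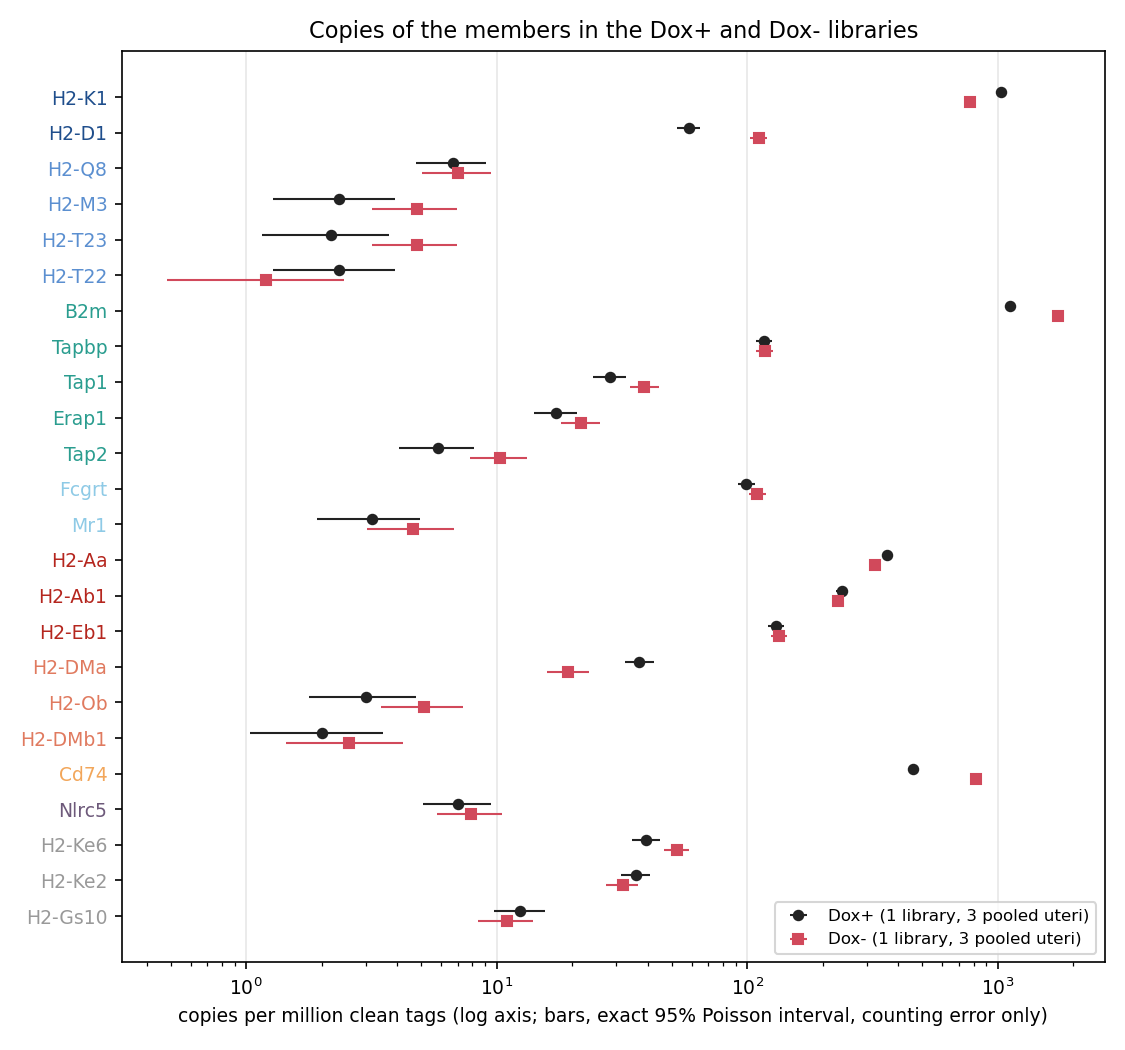
TPM (copies scaled to clean tags, horizontal log axis) of the 24 genes with at least 20 combined copies in the Dox+ (circles) and Dox- (squares) libraries, with exact 95% Poisson intervals and gene names coloured by class. The points of B2m, Cd74, H2-D1 and H2-DMa stand clearly apart between the libraries, and those of Tapbp, H2-Ab1 and H2-Eb1 overlap.

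The classical class I heavy chains present peptides to CD8 T cells, and both genes lie on chromosome 17. H2-K1 (chr17:34132962-34137278) had 6182 copies in Dox+ and 4539 in Dox-, 1.33-fold lower in Dox- (1.28 to 1.38), short of the 1.5-fold threshold. H2-D1 (chr17:35399675-35404444) had 349 copies in Dox+ and 649 in Dox-, 1.90-fold higher in Dox- (1.67 to 2.18). The intervals lie on opposite sides of 1, so that the heavy chains of the same class went opposite ways in these libraries. H2-D1 had 5.65% of the copies of H2-K1 in Dox+ and 14.3% in Dox-, a ratio of ratios of 2.53 (2.21 to 2.91) that no scaling of the libraries can change. Per kilobase of the longest transcript, H2-K1 had 643 TPM per kilobase in Dox+ and 484 in Dox-, and H2-D1 had 27.7 and 52.8. If tags start only at the last enzyme site, copies do not scale with length and this division has no basis.

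The non-classical class I genes, whose known products present narrower sets of ligands or act on NK cells, had few copies. Not all are annotated as protein-coding: H2-K2 is a pseudogene, H2-T10 a polymorphic pseudogene and H2-Q8 a processed transcript. The 11 genes together had 106 copies in Dox+ and 137 in Dox-, and none reached 200 combined copies. H2-M3, which presents formylated peptides, had 14 copies in Dox+ and 28 in Dox-, a ratio of 2.05 (1.04 to 4.21). H2-T23, the Qa-1 molecule that NK cell receptors recognise, had 13 and 28, a ratio of 2.21 (1.11 to 4.64), uncertain because its last tag is shared. H2-Q8 had 40 and 41 copies, and H2-T22 had 14 and 7, a ratio of 0.512 (0.175 to 1.36). The intervals of H2-Q8 and H2-T22 hold 1, and the 7 genes H2-T3, H2-Q6, H2-Q1, H2-T24, H2-Q10, H2-T10 and H2-K2 had under 20 combined copies each.

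B2m (chr2:121973422-121978819), the light chain of all class I molecules, had the most copies of the 34 genes. It had 6681 copies in Dox+ and 10158 in Dox-, 1.56-fold higher in Dox- (1.51 to 1.61). Against the sum of the class I heavy chains, B2m stood at 101% in Dox+ and 191% in Dox-, a ratio of ratios of 1.90 (1.81 to 1.99). The light chain and the sum of its partners thus differed in opposite directions. That sum was held mostly by H2-K1, whose copies are uncertain. Without H2-K1 the sum had 455 copies in Dox+ and 786 in Dox-, 1.77-fold higher in Dox-, the same direction as B2m.

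Of the genes that load peptides on class I, none with at least 200 combined copies reached 1.5-fold. Tap1, a subunit of the peptide transporter, had 169 copies in Dox+ and 227 in Dox-, a ratio of 1.38 (1.12 to 1.69). Tap2, the other subunit, had 35 and 60 copies, a ratio of 1.76 (1.14 to 2.75), below the 200 combined copies. Tap1 and Tap2 were both higher in Dox-, and their ratio to each other did not differ beyond counting error, at 20.7% in Dox+ and 26.4% in Dox- (ratio of ratios 1.28, 0.786 to 2.09). Tapbp, which encodes tapasin, the bridge between the transporter and the heavy chain, had 698 and 685 copies, a ratio of 1.005 (0.903 to 1.12). Erap1, the peptidase that trims peptides in the endoplasmic reticulum, had 103 and 127 copies, a ratio of 1.26 (0.966 to 1.65). The class of the light chain and loading had 4 genes with at least 200 combined copies, with a median log2 ratio of 0.40. Of these, 1 was higher by 1.5-fold and none lower, beside 15.2% and 14.7% of all 6547 genes.

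Of the class I-like genes, Fcgrt encodes the neonatal Fc receptor, which carries IgG and pairs with B2m. It had 594 copies in Dox+ and 641 in Dox-, a ratio of 1.11 (0.987 to 1.24). Mr1, which presents vitamin B metabolites to MAIT cells, had 19 and 27 copies, a ratio of 1.46 (0.780 to 2.77). Neither differed beyond counting error.

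The class II chains were close to even. H2-Aa (chr17:34406276-34424772), the alpha chain of I-A, had 2164 copies in Dox+ and 1884 in Dox-, a ratio of 0.892 (0.838 to 0.949). H2-Ab1 (chr17:34400154-34406363), its beta chain, had 1428 and 1347, a ratio of 0.966 (0.896 to 1.04). H2-Eb1 (chr17:34442828-34453144), the beta chain of I-E, had 781 and 782, a ratio of 1.03 (0.928 to 1.13). The interval of H2-Aa lies just below 1, and those of H2-Ab1 and H2-Eb1 hold it. The share of H2-Ab1 to H2-Aa was 66.0% in Dox+ and 71.5% in Dox- (ratio of ratios 1.08, 0.982 to 1.19), and that of H2-Eb1 to H2-Aa 36.1% and 41.5% (1.15, 1.02 to 1.29). For H2-Eb2, with 3 copies in Dox+ and 0 in Dox-, no ratio is given, since both are at or under the floor of 3 copies.

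Cd74 (chr18:60963502-60972300), the invariant chain, did not follow the chains it binds. It had 2742 copies in Dox+ and 4761 in Dox-, 1.78-fold higher in Dox- (1.70 to 1.86). Against the sum of the class II chains H2-Aa, H2-Ab1, H2-Eb1 and H2-Eb2 it stood at 62.7% in Dox+ and 119% in Dox-, a ratio of ratios of 1.89 (1.78 to 2.02). The invariant chain and the light chain B2m thus both had higher ratios to the chains they bind in the Dox- library. For B2m this rested on H2-K1, which held most class I copies. Both ratios were chosen after the high copies of Cd74 and B2m were seen, so they add no separate support.

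Of the peptide editors, H2-DMa (chr17:34272127-34276046), the alpha chain of the DM molecule, had 222 copies in Dox+ and 113 in Dox-, 1.92-fold lower in Dox- (1.52 to 2.43). Against the same class II chains it stood at 5.07% in Dox+ and 2.82% in Dox-, a ratio of ratios of 0.555 (0.437 to 0.702). H2-DMb1, a beta chain of DM, had 12 and 15 copies, a ratio of 1.28 (0.559 to 3.00). H2-Ob and H2-Oa encode the DO molecule, which restrains DM, and had 18 and 30 copies and 11 and 7 copies. The ratios of H2-DMb1, H2-Ob and H2-Oa could not be told from 1 at this depth, and H2-DMb1 shares 45.4% of its windows, all with H2-DMb2. The last CATG tag of H2-DMb1 is also in H2-DMb2, so its copies are uncertain.

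**Figure D2:**
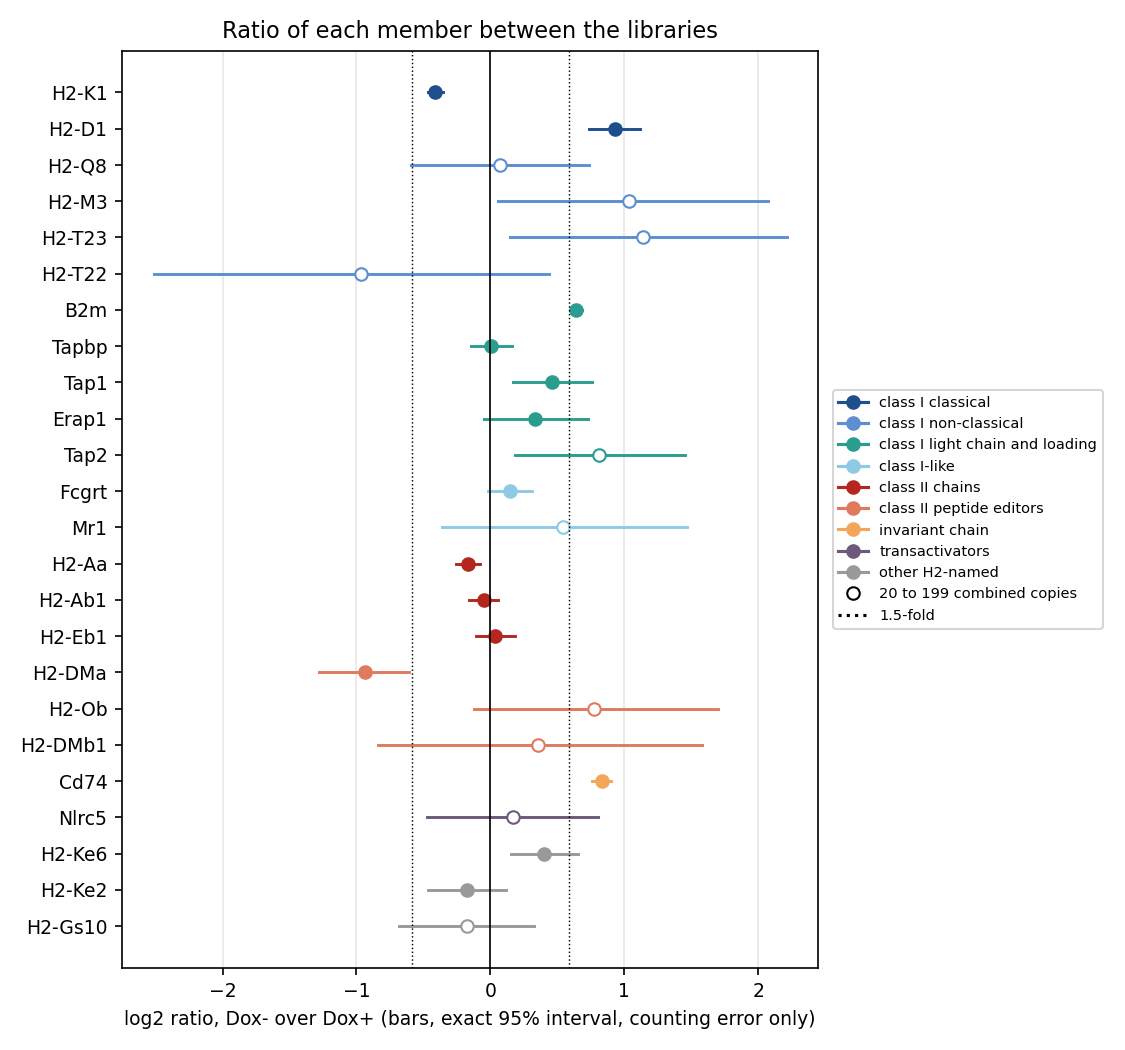
Log2 ratio of each gene with at least 20 combined copies, Dox- over Dox+ (horizontal axis), with its exact 95% interval. Filled circles have at least 200 combined copies and open circles fewer, colours give the class, and dotted lines mark 1.5-fold. B2m, Cd74 and H2-D1 lie right of the dotted line and H2-DMa left of it.

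The transactivators switch on whole classes, Ciita for class II and Nlrc5 for class I. Ciita had 2 copies in Dox+ and 5 in Dox-, too few for a comparison. Nlrc5 had 42 and 46, a ratio of 1.12 (0.722 to 1.75). Among the other genes with an H2- name, H2-Ke6 had 237 and 306 copies, a ratio of 1.32 (1.11 to 1.57), H2-Ke2 had 215 and 186, a ratio of 0.886 (0.724 to 1.08), and H2-Gs10, which the table describes as class I-like, had 74 and 64, a ratio of 0.886 (0.624 to 1.25).

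To compare the classes, the copies were summed. The 13 class I heavy chain genes had 6637 copies in Dox+ and 5325 in Dox-, 1109 and 911 TPM, 1.22-fold lower in Dox- (1.17 to 1.26). The 8 class II genes, chains and peptide editors, had 4639 and 4178, 775 and 715 TPM, 1.08-fold lower in Dox- (1.04 to 1.13). Both sums were lower in Dox-, and neither reached 1.5-fold. Class II over class I was 69.9% in Dox+ and 78.5% in Dox-, a ratio of ratios of 1.12 (1.06 to 1.19). The direction of the class I sum and of this ratio rested on H2-K1, which held most class I copies. Without H2-K1 the class I sum had 455 copies in Dox+ and 786 in Dox-, 1.77-fold higher in Dox- (1.57 to 1.99). Most of this remainder was H2-D1, with 349 and 649 copies. The 11 non-classical genes held 106 and 137, a ratio of 1.32 (1.02 to 1.72). Without H2-K1 and H2-Aa the ratio of ratios was 0.537 (0.471 to 0.611), which thus rested mostly on H2-D1 for class I. With both genes kept and Cd74 added to class II, the ratio of ratios was 1.51 (1.44 to 1.58), an alternative chosen after seeing the data. Of the class I heavy chains 2 genes had at least 200 combined copies, 1 called higher and 0 lower. Of class II 4 genes had, 0 called higher and 1 lower, beside 15.2% and 14.7% of all 6547 genes. Median log2 ratios were 0.26 for class I and -0.11 for class II. That of class I is only the midpoint of H2-K1 and H2-D1, which went opposite ways, and its sign is opposite to that of the class I sum.

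**Figure D3:**
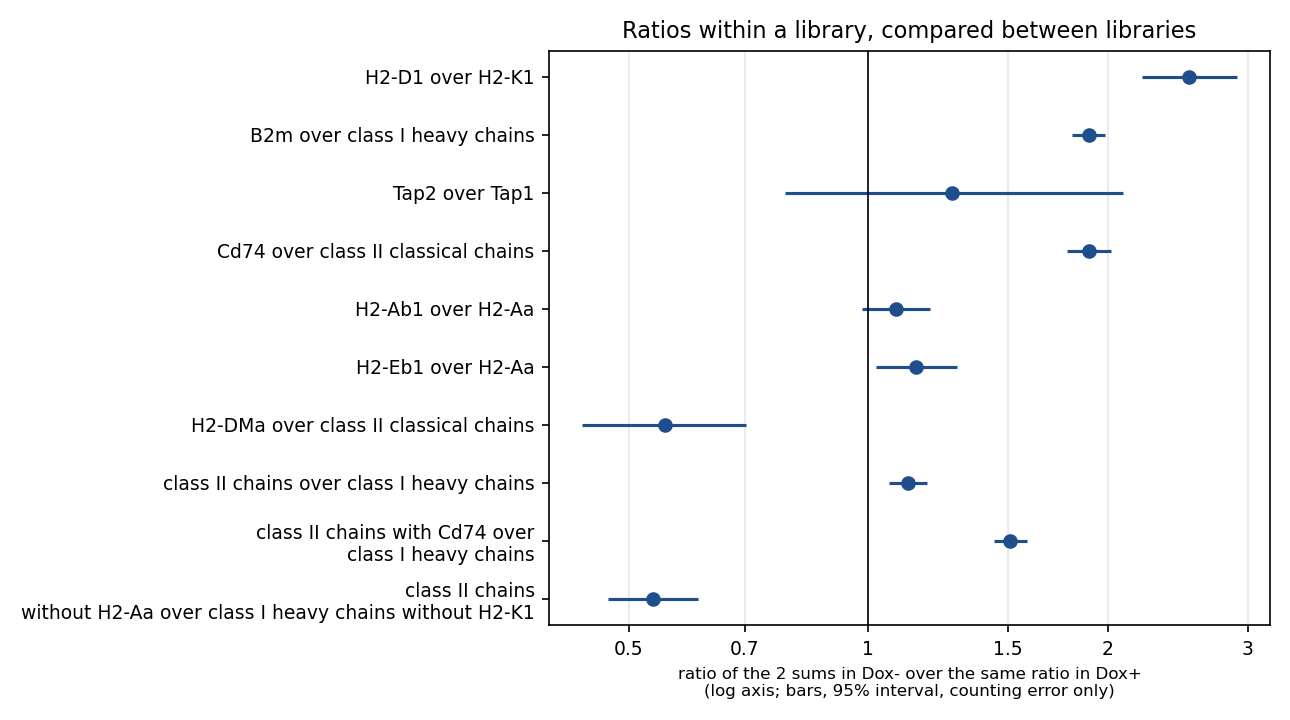
Ratios between genes or sums within a library, divided between libraries as Dox- over Dox+ (horizontal log axis), with 95% intervals from the conditional odds ratio. The pairs of H2-D1, B2m and Cd74 with their partners lie above 1.5, the H2-DMa pair lies below 1, and class II over class I changes side when H2-Aa and H2-K1 are left out.

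**Figure D4:**
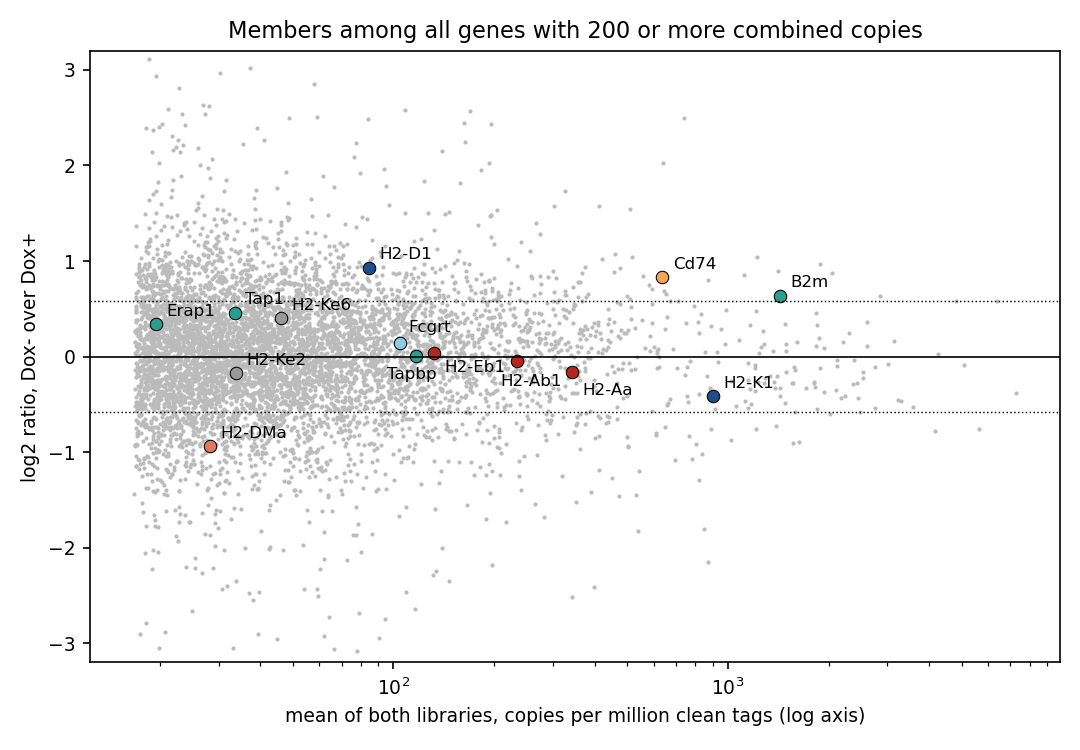
Log2 ratio, Dox- over Dox+, against the mean TPM of both libraries (log axis) for all 6547 genes with at least 200 combined copies (grey) and the 14 genes of antigen presentation (coloured by class). Dotted lines mark 1.5-fold, and 37 genes lie beyond the plotted log2 range of 3.2 on either side. B2m, Cd74 and H2-D1 lie above the upper dotted line, H2-DMa below the lower one, and the other 10 between them.

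The promoters of the class I genes that went opposite ways, of B2m and of H2-Aa are shown because the same factors are known to act on them. Each runs from 250 bases before to 50 after the RefSeq start (build GRCm38.p6), and capitals mark matches to CCAAT or ATTGG (the Y box core), the core of the interferon-stimulated response element (GAAA, any 2 bases, GAAA), the gamma-activated site core (TTCNNNGAA) and the NF-kappa B core (GGG, any 5 bases, CC), on both strands, where matches may overlap.
H2-K1 (chr17:34000298-34000597, minus strand): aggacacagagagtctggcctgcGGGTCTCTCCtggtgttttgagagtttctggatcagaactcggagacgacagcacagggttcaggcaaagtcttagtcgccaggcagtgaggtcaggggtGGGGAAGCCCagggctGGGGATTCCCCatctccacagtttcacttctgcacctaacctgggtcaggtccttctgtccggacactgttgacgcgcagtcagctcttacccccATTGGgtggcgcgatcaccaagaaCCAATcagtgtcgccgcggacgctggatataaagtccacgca
H2-D1 (chr17:35262844-35263143, plus strand): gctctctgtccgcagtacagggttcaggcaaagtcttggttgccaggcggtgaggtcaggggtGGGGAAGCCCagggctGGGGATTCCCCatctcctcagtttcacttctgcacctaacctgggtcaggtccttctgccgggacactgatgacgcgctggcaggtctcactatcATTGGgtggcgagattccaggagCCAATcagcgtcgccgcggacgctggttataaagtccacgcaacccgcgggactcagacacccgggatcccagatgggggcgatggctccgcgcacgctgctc
B2m (chr2:122147437-122147736, plus strand): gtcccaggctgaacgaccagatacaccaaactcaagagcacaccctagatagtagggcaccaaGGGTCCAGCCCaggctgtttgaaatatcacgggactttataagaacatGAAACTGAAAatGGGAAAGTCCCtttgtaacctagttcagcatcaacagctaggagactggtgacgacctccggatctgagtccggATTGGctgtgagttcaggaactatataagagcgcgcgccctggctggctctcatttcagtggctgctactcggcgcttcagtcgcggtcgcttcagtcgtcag
H2-Aa (chr17:34287774-34288073, minus strand): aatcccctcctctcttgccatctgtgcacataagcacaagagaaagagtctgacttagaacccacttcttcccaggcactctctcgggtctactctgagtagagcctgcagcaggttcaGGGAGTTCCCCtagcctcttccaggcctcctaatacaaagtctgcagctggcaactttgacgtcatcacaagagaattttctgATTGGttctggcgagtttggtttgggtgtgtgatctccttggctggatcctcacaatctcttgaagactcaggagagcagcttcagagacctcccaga

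H2-K1 and H2-D1 shared the NF-kappa B core matches GGGGAAGCCC, GGGGATTCCC and GGGATTCCCC, the last pair overlapping, and Y box cores in both orientations. At a shift of 60 bases between the annotated starts, 176 of 240 bases (73.3%) of their promoters were identical. That shift was chosen because it gave the highest share of identical bases. B2m had the interferon core match GAAACTGAAA, and both B2m and H2-Aa had a Y box core and NF-kappa B core matches. Of the 34 genes, 23 had a promoter in the table, 16 of them with a Y box core, 4 with the interferon core, 1 with the gamma-activated site and 13 with the NF-kappa B core. Over all 32851 promoters the shares were 37.4%, 3.44%, 8.30% and 50.8%. A match is a description of the sequence and not a binding site. Where a pattern had no match, as the interferon core in H2-K1 and H2-D1, a variant of the element may still be present.

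Other genes of the pathway were taken from lists of known members. Beside the calls in these and the cell type lists, 15.2% of all 6547 genes were called higher and 14.7% lower. Of 12 other class I loading genes all were in the table, 9 had at least 200 combined copies, 1 was called higher and none lower, with a median log2 ratio of 0.18. Sec61a1, a subunit of the channel into the endoplasmic reticulum, had 2019 copies in Dox+ and 4069 in Dox-, 2.06-fold higher in Dox- (1.96 to 2.18). The chaperones Canx, Calr and Pdia3, which fold the heavy chain, had ratios of 1.22, 1.34 and 1.13. Of the rest with enough copies, Psme1 (0.716) and Npepps (0.712) were lower beyond counting error. The intervals of Psme2 (0.974), Psmb10 (1.04) and Psmb8 (1.27) held 1. The genes of the last 2 sentences were named after their values were seen. Of 10 other class II processing genes 7 had enough copies, and the 2 called higher were the proteases Ctsh, from 522 to 930 copies (1.82-fold, 1.64 to 2.04), and Ctss, from 313 to 459 (1.502-fold, 1.30 to 1.74). Ctss, cathepsin S, which degrades the invariant chain, was named after its values were seen. The lysosomal proteases with the most copies, Ctsb and Ctsl, had ratios of 1.18 and 0.817, and Ifi30, the reductase of endosomes, had 588 and 524 copies.

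Of 17 other regulators of MHC genes 14 had enough copies and none was called in either direction, with a median log2 ratio of 0.11. Jak2 and Jak1, kinases of cytokine receptors, had ratios of 1.002 and 0.805, and Ifngr1, a chain of the interferon gamma receptor, had 1.41 (1.25 to 1.60), short of 1.5-fold. Of 7 other class I-like genes 3 were in the table, with Hfe at 32 and 55 copies and Procr at 39 and 22.

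**Figure D5:**
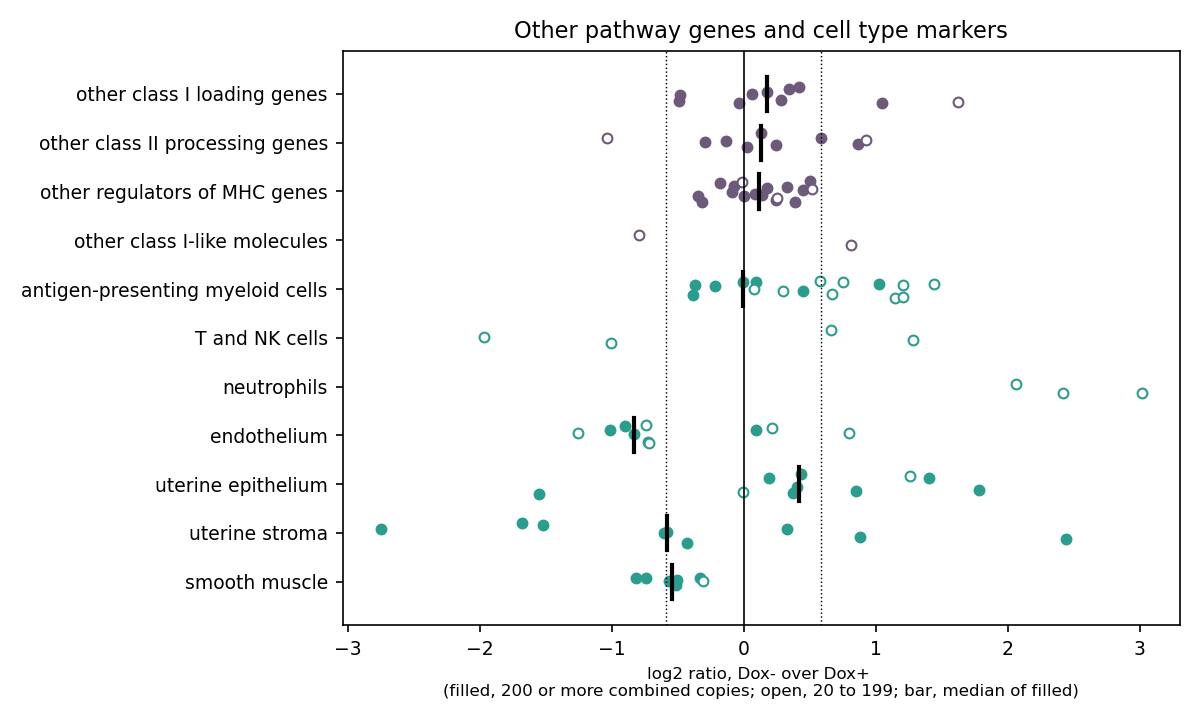
Log2 ratio, Dox- over Dox+ (horizontal axis), of the other pathway genes (purple) and cell type markers (green) with at least 20 combined copies. Filled circles have at least 200 combined copies, and the bar is their median. B cell markers are not plotted, as none reached 20 combined copies. The medians of the 3 pathway lists with one lie between 0.11 and 0.18, and that of endothelium at -0.83.

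Of 18 listed markers of antigen-presenting myeloid cells 17 were in the table, with a summed level of 257 TPM in Dox+ and 326 in Dox-, and none at 0. Of the 7 with enough copies, 1 was called higher, Laptm5, from 224 to 446 copies, and none lower, with a median log2 ratio of -0.0048. Tyrobp, Csf1r and Fcgr3, with the most copies after Laptm5, had ratios of 0.767, 0.997 and 0.862. Ptprc, which encodes CD45, had 49 and 130 copies, and Itgam, of macrophages and neutrophils, had 45 and 97. Beyond counting error, Tyrobp and Fcer1g (0.775) were lower. Lyz2 (1.36), Emr1 (1.49), Cx3cr1 (1.68) and Cd209a (2.30) were higher, as were Laptm5, Ptprc and Itgam. Ptprc, Itgam, Emr1, Cx3cr1 and Cd209a had under 200 combined copies. These genes, Fcer1g and Lyz2 were named after their values were seen. B cell markers, 4 of 5 in the table, summed to 1.504 and 6.16 TPM, with Blk at 0 in Dox+. Neutrophil markers, 3 of 5, summed to 7.02 and 37.0 TPM, with S100a8 at 24 and 98 copies, and T and NK cell markers, 10 of 10, to 20.2 and 17.6 TPM. Among the latter, the T cell receptor chains Cd3g and Cd3e had 22 and 34 copies and 8 and 19 copies, while Ncr1, a receptor of NK cells, had 37 and 18 and Gzmb, a granule protease, had 32 and 8. Cd4, Cd8a and Prf1 were at 0 in Dox+, with at most 4 copies in Dox-. Their part in the ratios of B2m, Cd74 and H2-DMa was not tested.

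Endothelial markers, whose cells carry class I, summed to 280 and 184 TPM. Of 5 with enough copies 4 were called lower, among them Cdh5 from 446 to 216 copies, and none higher. Pecam1, called in neither direction, had 243 and 253 copies, a ratio of 1.07 (0.891 to 1.28). Of all 6547 genes with enough copies, 15.2% were called higher and 14.7% lower. Uterine epithelial markers summed to 1228 and 1646, with 3 of 8 called higher, among them Cldn7 from 877 to 2263 copies, and 1 lower, Cldn3 from 1482 to 494. Stromal markers summed to 2288 and 1780, with 2 of 9 called higher and 4 lower, and smooth muscle markers to 6222 and 4339, with 2 of 6 called lower and none higher. Their part in the class I ratios was not tested.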

How the data were processed

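Total RNA of 3 pooled uteri per condition was profiled in 1 Dox+ and 1 Dox- library. Before deposit, the authors discarded tags of adaptor alone, of low quality or with a single copy, matched the others to mouse RefSeq transcripts of mm9, and deposited the counts of unambiguous tags per gene, with no normalization. CASAVA is named in the submitters' processing notes, and the aligner is not given in the sources used here. The deposited TPM values are copies scaled to the clean tags, with no length correction. The sample descriptions mention fragmentation of mRNA while the paper describes tags of both strands, and whether the counts hold sense tags alone is not given in the sources used here. The table also holds the authors' ratios, log2 ratios, P-values and FDR, which were not used.

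The clean tags were computed from the counts and the TPM, which fix them to 1 whole number per library. Ratios are copies per clean tag, Dox- over Dox+, with exact Clopper-Pearson intervals. Ratios within a library were compared by the conditional odds ratio. Class II against class I was planned. Its form with Cd74, the pairs of single genes and the ratios of a gene to a sum were chosen after seeing the data. For the ratios of single genes, counts below 4 were raised to 3, and no ratio is printed where that was done. The main results rest on no test between conditions, since each has 1 library, and depth limits precision as the intervals show.

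Members were called with at least 200 combined copies and a 1.5-fold ratio. Ctss, Ptprc, Itgam, Fcer1g, Lyz2, Emr1, Cx3cr1, Cd209a, Psme1, Npepps, Psme2, Psmb10, Psmb8 and the T and NK cell markers at 0 were named after their values were seen. Otherwise all members are accounted for, those with at least 20 combined copies with both counts. Of each other list, up to 4 genes with the most copies are named. A gene that this rule names is not reported here. The members and lists were chosen with earlier results of these data known. Alternatives were other scalings, filters and thresholds, the Audic-Claverie test and the exact test of edgeR with an assumed coefficient of variation of 0.2. The intervals were tested on simulated data with counting error alone, so this says nothing about the spread between uteri. Windows and tags came from 21-base matches to GENCODE transcripts. Positions came from the same annotation, and promoters from RefSeq. The software was edgeR 4.0.16 in R 4.3.3, and Python 3.11.15 with scipy 1.17.1, matplotlib 3.10.9, numpy 2.4.6 and pandas 2.3.3.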

Additional observations from a re-analysis of the deposited data

How the results depend on the processing

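The ratios of the 24 genes with at least 20 combined copies stayed within their intervals under the 3 other scalings and a pseudocount of 1, in 96 of 96 values. The scalings shifted every log2 ratio by 0.04 (sum of the counts in the table), -0.02 (TMM) and -0.03 (median of ratios) and changed no count of called members. Counts were unchanged at a combined minimum of 100 and with the Audic-Claverie test at an FDR below 0.05, which compares the libraries and not the conditions. At a minimum of 20, 7 members were called higher and 2 lower, with 3 and 1 for class I heavy chains, 1 and 1 for class II and 2 higher for class I loading. With no filter beyond a count above 3 in 1 library, 10 were higher and 4 lower, with 5 and 2 for class I heavy chains, 1 and 2 for class II and 2 higher for class I loading. At a 2-fold threshold, 0 members were called in either direction in any class. The same held with edgeR at an assumed coefficient of variation of 0.2 between pools. Of the 6547 genes, edgeR called 138 higher and 161 lower, 2.11% and 2.46%. At such low shares, 0 of the 14 members with at least 200 combined copies does not set them apart from the table. With 1 pool per condition, that coefficient is an assumption and not a measurement. Of the whole table, 994 genes were higher and 961 lower of 6547 as reported, and 302 and 368 at 2-fold (4.61% and 5.62%). At a minimum of 20 they were 2385 and 2256 of 12079 (19.7% and 18.7%), beside 7 and 2 of 24 members, and with no filter 2869 and 2830 of 13727 (20.9% and 20.6%), beside 10 and 4 of 30 members. Without H2-K1 the class I sum, then mostly H2-D1, reversed to a ratio of 1.77. The ratio of ratios of class II to class I reversed without H2-K1 and H2-Aa, to 0.537. With both genes kept and Cd74 in class II it moved to 1.51. These changes came by the construction of the sums. No paired analysis was possible because each condition has 1 library.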
